A study of Danio rerio with 18 samples.

Results

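The comparison described here asks whether injection of a Csm complex left a different trace in the zebrafish transcriptome at 24 h post fertilization (24 hpf) than at 5 hpf. It was made with 12 of the 18 libraries of the series, chosen by their labelled stage: StCsm(EGFP) at 24 hpf, mock at 24 hpf, StCsm(EGFP) at 5 hpf and mock at 5 hpf, with 3 libraries each. All embryos came from Tg(ddx4:ddx4-EGFP) females of the ABTL strain crossed with casper males, so each group, mock included, held embryos from mothers with a transgene that joins EGFP to the germ line gene ddx4 under the ddx4 promoter. StCsm(EGFP) is the type III Csm effector complex of Streptococcus thermophilus loaded with a crRNA against EGFP. It carried the D16A substitution in Cas10, which removes the DNase activity and leaves the RNase activity. At the 1-cell stage 1 nL was placed in the yolk, holding either 0.7 ng of complex or, in mock embryos, diluted Tris storage buffer. Offspring of 3 mating pairs were pooled for each of 3 independent experiments, and each library is 1 pool of 25 whole embryos. The mock contains no protein and no crRNA, so effects of the complex and of its guide cannot be told apart.

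As background, zebrafish embryos begin with RNA deposited by the mother. Around the mid-blastula transition the zygotic genome is switched on and maternal RNA is cleared. At 5 hpf the embryo is at the start of gastrulation, with newly made regulators of the germ layers, and at 24 hpf it has somites, a beating heart and a differentiating nervous system. An effect of injection that differs between the stages can therefore come from genes present at both stages or from genes read almost only at one of them. Levels were compared within a gene as CPM, the count of a gene scaled to the size of its library with TMM factors. Effects are given on the log2 scale as Csm over mock, and the interaction is the effect at 24 hpf minus the effect at 5 hpf. A within-replicate ratio is the log2 ratio of Csm over mock between libraries of the same replicate number at a stage, with a prior count of 2. Such a pair was taken as 1 experiment. Symbols are those of the gene name table, which gives many zebrafish genes in capitals under the name of the human gene, and paralogs can share such a name.

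The libraries held 11763787 to 17124679 reads assigned to genes. The stages were as labelled: skeletal muscle transcripts summed to 29490 to 34710 CPM at 24 hpf and 1404 to 1799 CPM at 5 hpf, while germ plasm transcripts, provided by the mother, summed to 187 to 240 CPM at 24 hpf and 1146 to 1660 CPM at 5 hpf. One library stood apart at 24 hpf. The Csm library of replicate 2 had a TMM factor of 1.11, against 0.80 to 0.93 in the other 5 libraries of 24 hpf, and it held 127900 CPM of cytosolic ribosomal protein mRNAs, against 197400 to 268100 CPM. At 5 hpf this sum was low in the mock library of replicate 2, at 24260 CPM, and in the Csm library of replicate 3, at 28600 CPM, with 36350 to 59380 CPM in the other 4.

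No gene passed the test for an injection effect that differed between 24 hpf and 5 hpf. Of 19231 genes, 0 (0%) passed an adjusted p of 0.1 for the interaction in edgeR's quasi-likelihood test, and the smallest adjusted p was 1. At an unadjusted p under 0.05 there were 500 genes (2.6%), of which 237 (1.23%) had an interaction above 0 and 263 (1.37%) below 0. DESeq2's Wald test with the same blocks also called 0, with 227 genes at an unadjusted p under 0.05. The interaction had a median size of 0.26 on the log2 scale and a median standard error of 0.41, and the 95% interval lay within 2-fold in either direction for 7516 genes (39.1%). This precision depended on the level: it was reached by 7451 of the 12706 genes with at least 1 CPM on average at both stages and by 65 of the 6525 others.

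**Figure D1:**
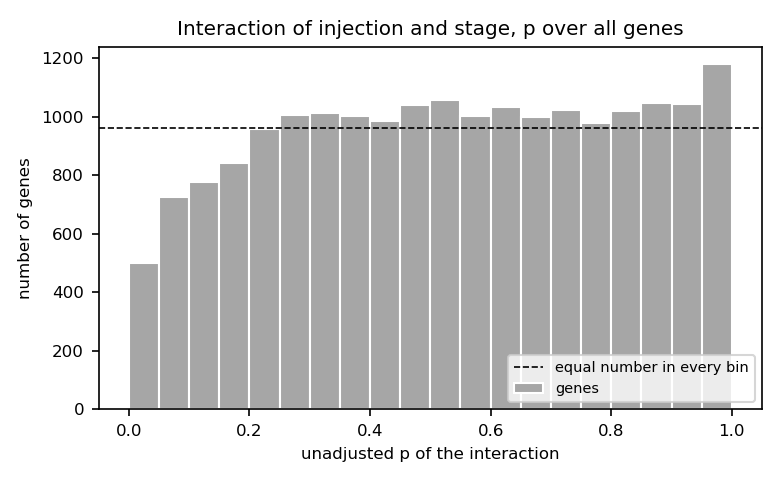
Number of genes (vertical axis) by unadjusted p of the interaction of injection and stage (horizontal axis, 20 bins of 0.05); the dashed line marks 961.6 genes, an equal number in every bin. The first bin holds 500 genes, the fewest of all bins.

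The effects at each stage alone, from the same fit, also had no call. At 24 hpf 0 genes (0%) passed the adjusted p of 0.1 and 537 (2.79%) had an unadjusted p under 0.05, with 438 (2.28%) higher and 99 (0.515%) lower in Csm embryos. At 5 hpf 0 genes (0%) passed and 449 (2.33%) had an unadjusted p under 0.05, with 299 (1.55%) higher and 150 (0.78%) lower. A uniform distribution of p would place 5% of genes under 0.05, more than the share at either stage. Of the 19231 genes, 12 were under 0.05 at both stages, and the number that unrelated effects would share was not computed. Across genes, which are not independent replicates, the effects at the 2 stages had a Pearson r of -0.0053 and a Spearman rho of -0.011. The 3 within-replicate ratios of a gene had a median SD of 0.33 at 24 hpf and 0.44 at 5 hpf, both larger than the median size of the fitted effects, which was 0.16 at either stage.

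**Figure D2:**
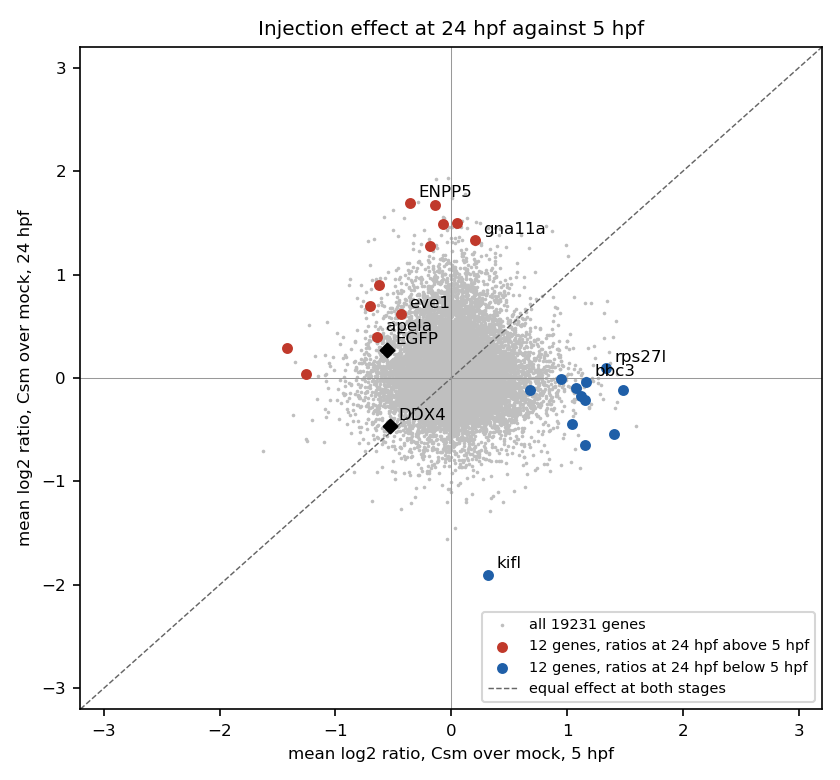
Mean within-replicate log2 ratio of Csm over mock at 24 hpf (vertical axis) against 5 hpf (horizontal axis), 1 point for each of 19231 genes. Red and blue points are the 12 genes in each direction described in the text, black diamonds are EGFP and DDX4, and the dashed line marks an equal effect; rps27l and bbc3 lie near 0 at 24 hpf and above 1 at 5 hpf, and DDX4 lies close to the line.

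The targeted transcript is described first. EGFP has a contig of its own in the annotation of the files, which places it at bases 501 to 1249 of that contig, on the minus strand. The crRNA finds it through the spacer, shown because it defines the target, 5′ to 3′ and with no part set off by capitals.
EGFP spacer: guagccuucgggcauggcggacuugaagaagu
EGFP had 1.3, 1.90 and 1.08 CPM in the Csm libraries of 24 hpf, against 1.22, 1.19 and 0.987 CPM in mock libraries. The 5 hpf values were 51.6, 91.9 and 67.2 CPM in Csm embryos, against 91.6, 118.8 and 92.4 CPM in mock embryos. In the 3 experiments Csm was below mock at 5 hpf, whereas at 24 hpf no experiment had Csm below mock in CPM. The reads at 24 hpf were 15, 36 and 12 in Csm libraries, against 12, 15 and 13 in mock libraries. The authors judged EGFP reads at 24 hpf too few for a meaningful comparison. For 5 hpf they reported a significant reduction of EGFP, by a likelihood ratio test with the batch in the model. The interaction was 0.89 on the log2 scale (95% interval 0.20 to 1.59, unadjusted p = 0.0163, adjusted p = 1), from an effect of 0.34 at 24 hpf and -0.55 at 5 hpf. In the same quasi-likelihood fit these effects had an unadjusted p of 0.237 and 0.0052, and neither passed the threshold over all genes. The 3 ratios at 24 hpf were above the 3 at 5 hpf, for which an exact two-sided permutation test gave p = 0.10, the smallest value that 3 against 3 allow. Without replicate 2 of 24 hpf the interaction was 0.66.

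The gene listed as DDX4, the germ plasm RNA helicase that the transgene is built on, was lower in Csm embryos in each of the 6 pairs. It had 5.72, 5.33 and 5.51 CPM in Csm libraries of 24 hpf, against 7.53, 7.70 and 7.74 CPM in mock libraries. Its levels at 5 hpf were 378, 337 and 287 CPM in Csm libraries, against 502, 508 and 432 CPM in mock libraries. The groups did not overlap at either stage, and the effect was -0.47 at 24 hpf (unadjusted p = 0.015, adjusted p = 1) and -0.53 at 5 hpf (unadjusted p = 0.0027, adjusted p = 1). The interaction was 0.056, with a 95% interval of -0.43 to 0.54, which leaves room for a difference of up to 0.54 on the log2 scale. Reads from the endogenous gene and from the ddx4 part of the transgene cannot be told apart in these counts. In bulk RNA of whole embryos fewer cells of a type and less RNA per cell cannot be told apart. Over the 22 germ plasm genes tested, DDX4 included, the median effect was -0.09 at 24 hpf and -0.07 at 5 hpf. Of them 4 (18.2%, against 13.3% of all genes) were below 0 in each pair at 24 hpf and 1 (4.55%, against 6.78%) at 5 hpf, and 10 had an interaction below 0, with a median of 0.05. NANOS3, which protects primordial germ cells, had the smallest p of the list (interaction 0.80, unadjusted p = 0.067).

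Of the other genes studied in this system, tdgf1, the Nodal co-receptor whose loss gives one-eyed embryos, had an interaction of 0.26 (95% interval -0.23 to 0.75). It had 7.97, 14 and 11.4 CPM in Csm libraries of 24 hpf, against 6.92, 9.61 and 11.2 CPM in mock libraries. At 5 hpf the values were 292, 319 and 286 CPM in Csm libraries and 276, 352 and 270 CPM in mock libraries, and they overlapped. The heart myosin light chain MYL7 and the endothelial factor FLI1 were read almost only at 24 hpf, where they had 21.2 to 29.9 CPM and 24.1 to 30.2 CPM in Csm libraries, against 24.9 to 36.3 CPM and 23.3 to 30.1 CPM in mock libraries. MYL7 had 2 reads in all Csm libraries of 5 hpf together and 2 in the mock libraries. The heart regulator NKX2-5 was below the filter, with 5 to 12 reads in Csm libraries of 24 hpf and 7 to 16 in mock libraries.

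The raw ratios show the data behind the fit. At 24 hpf the 3 within-replicate ratios all lay above the 3 of 5 hpf for 626 genes (3.26%) and all below them for 792 genes (4.12%), together 7.37%. Among the 12706 genes at 1 CPM or more at both stages these shares were 2.57% and 3.46%, and 1.77% had an interaction at an unadjusted p under 0.05. Where a gene had no read in a pair its ratio was 0. From the genes without overlap the 12 with a symbol and the smallest interaction p were taken in each direction, so their p only describes the choice. Those with lower ratios at 24 hpf had an unadjusted p between 0.000471 and 0.00447, and those with higher ratios between 0.00145 and 0.00626. Of the 12 with lower ratios at 24 hpf, 1 had an unadjusted p under 0.05 for the effect at 24 hpf and 11 for that at 5 hpf. Of the 12 with higher ratios, 9 had one at 24 hpf and 5 at 5 hpf.

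**Figure D3:**
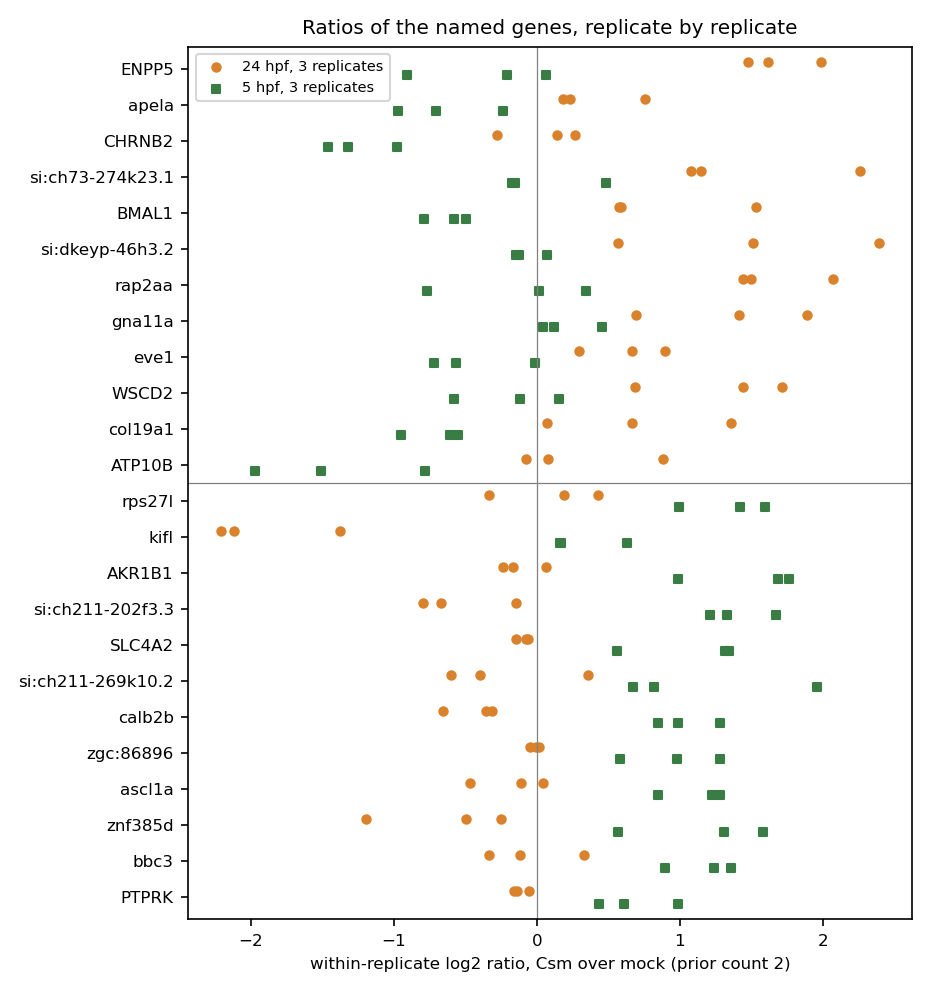
Within-replicate log2 ratios of Csm over mock (horizontal axis) of 24 genes (rows), 3 experiments at 24 hpf (orange circles) and 3 at 5 hpf (green squares). The upper 12 genes have ratios at 24 hpf above those at 5 hpf and the lower 12 below, and in the lower set the 5 hpf ratios are all above 0.

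The smallest p of all genes belonged to rps27l, a ribosomal protein S27-like gene. At 24 hpf rps27l had 52.7, 44.3 and 37.8 CPM in Csm embryos, against 39.1, 38.8 and 47.8 CPM in mock embryos, and the groups overlapped. At 5 hpf it had 167, 201 and 122 CPM in Csm embryos, against 62.4, 66.6 and 61.1 CPM in mock embryos, with the lowest Csm library well above the highest mock library. The effect was 0.10 at 24 hpf and 1.34 at 5 hpf, and the interaction was -1.241 (95% interval -1.81 to -0.68, unadjusted p = 0.000471, adjusted p = 1). The interaction passed the threshold in none of 17 alternatives and over them lay between -1.41 and -1.03. The effect at 5 hpf missed the threshold here with an adjusted p of 0.22 and passed it in 4 alternatives, with 3.4e-06 in DESeq2's Wald test.

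The gene bbc3, which encodes the cell death activator Puma, had nearly the same interaction, -1.243 (95% interval -2.01 to -0.47, unadjusted p = 0.00434). It had 2.43, 4.64 and 2.80 CPM in Csm embryos of 24 hpf, against 2.64, 5.88 and 2.2 CPM in mock embryos. The 5 hpf values were 6.96, 16.6 and 13.2 CPM in Csm embryos, against 2.62, 6.96 and 7.05 CPM in mock embryos. Replicate 1 was the lowest at 5 hpf in either injection, so the groups overlapped slightly although each pair differed in the same direction. The interaction of bbc3 lay between -1.43 and -1.06 over the alternatives.

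**Figure D4:**
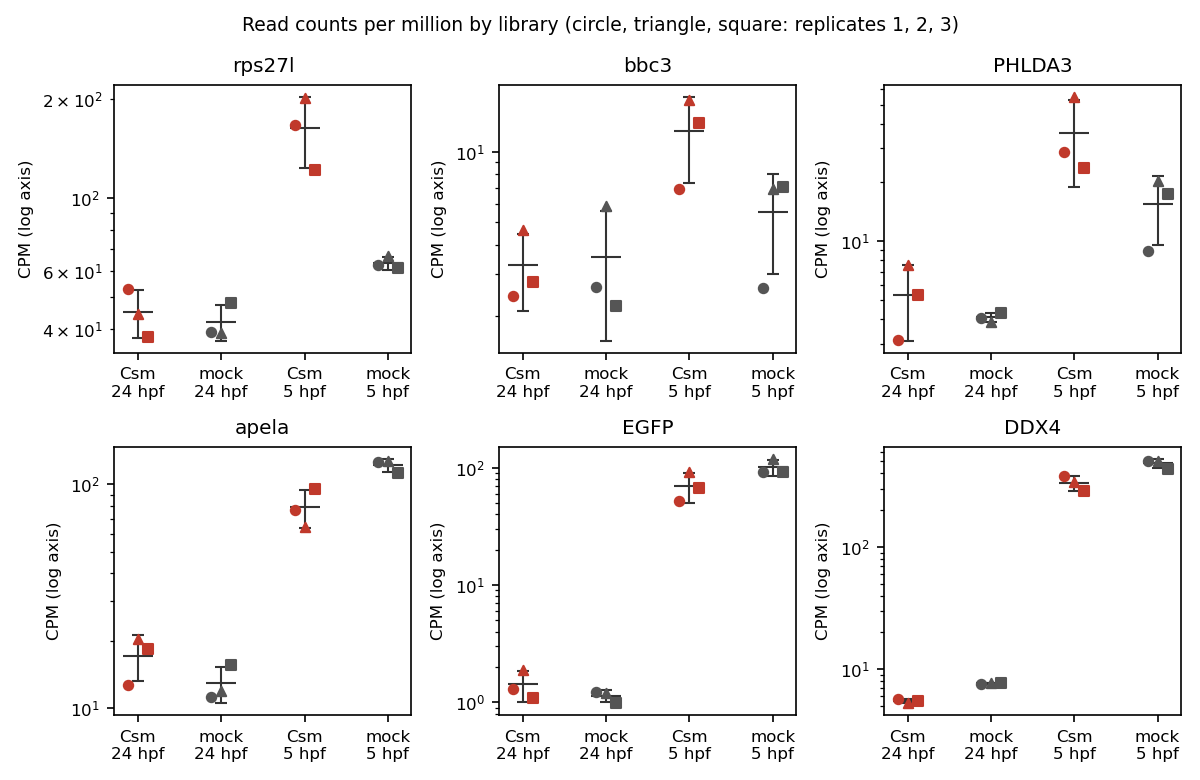
CPM (log axis) of 6 genes in the 12 libraries, in the order Csm 24 hpf, mock 24 hpf, Csm 5 hpf and mock 5 hpf; red points are Csm and grey points mock libraries, with the marker giving the replicate, and bars show the mean and SD of 3 libraries. For rps27l the Csm points stand above the mock points at 5 hpf and mix with them at 24 hpf, and for DDX4 they stand below at both stages.

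Outside the rule and chosen after its values were seen, PHLDA3, an inhibitor of Akt signalling, had 3.12, 7.60 and 5.33 CPM in Csm embryos of 24 hpf, against 4.07, 3.89 and 4.33 CPM in mock embryos. At 5 hpf PHLDA3 had 28.6, 54.9 and 23.7 CPM in Csm embryos, against 8.91, 20.3 and 17.5 CPM in mock embryos, and its interaction was -0.84 (unadjusted p = 0.0682).

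SLC4A2, a chloride and bicarbonate exchanger, had 33.5, 28.2 and 29.5 CPM in Csm embryos of 24 hpf, against 35.1, 29.8 and 32.7 CPM in mock embryos. Its levels at 5 hpf were 9.85, 15.6 and 7.04 CPM in Csm embryos, against 3.87, 6.04 and 4.74 CPM in mock embryos, and the groups did not overlap there. Its interaction was -1.19 (95% interval -1.82 to -0.57, unadjusted p = 0.00136). The uncharacterized gene si:ch211-269k10.2 had an interaction of -1.35, with 123, 66.2 and 62.8 CPM in Csm embryos of 24 hpf, against 96.2, 100.4 and 82.7 CPM in mock embryos. At 5 hpf it had 11.5, 10.7 and 7.50 CPM in Csm embryos, against 7.18, 2.63 and 4.18 CPM in mock embryos.

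PTPRK, a receptor tyrosine phosphatase, varied more between experiments than between injections at 5 hpf. At 24 hpf the values were 83.9, 69.2 and 86.1 CPM in Csm embryos and 92.3, 77.3 and 89.4 CPM in mock embryos. The 5 hpf values were 57.1, 8.74 and 64.3 CPM in Csm embryos, against 42.1, 4.33 and 42.1 CPM in mock embryos, so replicate 2 was far below the others in both injections. Its interaction was -0.77 with an unadjusted p of 0.00447, and without the replicate block the p was 0.48. The uncharacterized gene zgc:86896 had 63.6, 95.5 and 85.7 CPM in Csm embryos of 24 hpf, against 65.9, 94.3 and 85.9 CPM in mock embryos. Its levels at 5 hpf were 1.55, 2.66 and 0.908 CPM in Csm embryos, against 0.553, 1.28 and 0.561 CPM in mock embryos, and its interaction was -1.09.

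The other 6 genes of this direction rested on few reads at one stage, and 5 of them had at most 3 reads in all libraries of a group together, for which no fold is given. The calcium-binding protein gene calb2b had 82, 84 and 55 reads in Csm libraries of 24 hpf, against 87, 89 and 84 in mock libraries. At 5 hpf it had 2, 3 and 2 reads in Csm libraries, against 0, 0 and 0 in mock libraries. The proneural factor gene ascl1a had 5, 3 and 2 reads in Csm libraries of 5 hpf, against 1, 0 and 0 in mock libraries. The aldose reductase gene AKR1B1 had 2, 8 and 6 reads in Csm libraries of 5 hpf, against 0, 1 and 0 in mock libraries. The zinc finger gene znf385d had 3, 1 and 5 reads in Csm libraries of 5 hpf, against 0, 0 and 0 in mock libraries. These 4 genes had more reads at 24 hpf, where calb2b, ascl1a and AKR1B1 had 55 to 438 reads per library and znf385d 5 to 16.

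The remaining gene of the 5, kifl, was read at the other stage. It had 1, 0 and 0 reads in Csm libraries of 24 hpf, against 9, 6 and 3 in mock libraries. At 5 hpf it had 36, 19 and 31 reads in Csm libraries, against 23, 16 and 25 in mock libraries. The uncharacterized gene si:ch211-202f3.3, the last of the 12, had 8, 10 and 9 reads in Csm libraries of 5 hpf, against 2, 3 and 1 in mock libraries, and an interaction of -2.61.

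In the opposite direction, apela had the second smallest p, after ENPP5, whose counts were low at 24 hpf. It encodes Toddler, a secreted peptide that acts through the apelin receptors to guide mesendodermal cells during gastrulation. At 24 hpf apela had 12.7, 20.4 and 18.4 CPM in Csm embryos, against 11.2, 12 and 15.6 CPM in mock embryos, with Csm above mock in each pair. At 5 hpf it had 76.9, 64.8 and 94.9 CPM in Csm embryos, against 125, 127 and 112 CPM in mock embryos, and the groups did not overlap. The effect was 0.40 at 24 hpf and -0.64 at 5 hpf, and the interaction was 1.04 (95% interval 0.46 to 1.62, unadjusted p = 0.00208, adjusted p = 1). Over the alternatives it lay between 0.85 and 1.241. Its receptor gene aplnrb had the opposite sign, with an effect of -0.03 at 24 hpf and 0.47 at 5 hpf (interaction -0.50, unadjusted p = 0.108). In aplnrb at 5 hpf the pairs were uneven, with 88.7, 106 and 78.5 CPM in Csm embryos, against 85.9, 53.6 and 59.5 CPM in mock embryos.

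The homeobox gene eve1, a regulator of ventral and posterior fates, behaved like apela. It had 2.34, 4.12 and 4.97 CPM in Csm embryos of 24 hpf, against 1.42, 2.14 and 4.02 CPM in mock embryos. The 5 hpf values were 59.0, 83.3 and 90.7 CPM in Csm embryos, against 96.9, 124 and 91.6 CPM in mock embryos, and replicate 3 had nearly equal values. The interaction was 1.06 (95% interval 0.41 to 1.72, unadjusted p = 0.00426). The circadian clock factor BMAL1 had 2.34, 5.33 and 3.16 CPM in Csm embryos of 24 hpf, against 1.52, 1.75 and 2.05 CPM in mock embryos. At 5 hpf BMAL1 had 0.985, 2.32 and 1.87 CPM in Csm embryos, against 1.45, 4.12 and 2.87 CPM in mock embryos, and its interaction was 1.66.

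The collagen gene col19a1 also had effects of opposite sign. It had 3.47, 5.91 and 3.43 CPM in Csm embryos of 24 hpf, against 2.13, 2.22 and 3.27 CPM in mock embryos. Its levels at 5 hpf were 2.32, 2.80 and 2.04 CPM in Csm embryos, against 4.63, 4.33 and 3.06 CPM in mock embryos, and the interaction was 1.47. The G protein alpha subunit gene gna11a had the smallest p at 24 hpf of all genes (0.000268). It had 1.73, 6.28 and 3.07 CPM in Csm embryos of 24 hpf, against 1.02, 1.59 and 1.06 CPM in mock embryos. At 5 hpf gna11a had 18, 17.9 and 21.2 CPM in Csm embryos, against 13.1, 16.4 and 20.6 CPM in mock embryos, and the interaction was 1.32. In 9 of the 12 genes of this direction the highest ratio at 24 hpf was that of replicate 2, whose Csm library stands apart. Each of the 12 interactions stayed above 0 without that replicate. This gives no support, since ratios without overlap were the ground of choice and the remaining ones still lie above those of 5 hpf. In 7 of the 12 genes with lower ratios at 24 hpf, the lowest ratio at that stage was likewise that of replicate 2.

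The other 7 genes were at low counts at 1 or both stages. ENPP5, of a family of phosphodiesterases, had 7, 30 and 8 reads in Csm libraries of 24 hpf, against 1, 6 and 1 in mock libraries, with an interaction of 2.5. At 5 hpf it had 54, 40 and 92 reads in Csm libraries, against 64, 74 and 80 in mock libraries. The nicotinic receptor subunit gene CHRNB2 had 0, 0 and 0 reads in Csm libraries of 5 hpf, against 2, 3 and 4 in mock libraries. The lipid transporter gene ATP10B had 1, 7 and 3 reads in Csm libraries of 5 hpf, against 10, 13 and 12 in mock libraries, with an interaction of 2.08. The small GTPase gene rap2aa had 3, 15 and 5 reads in Csm libraries of 24 hpf, against 0, 1 and 1 in mock libraries. WSCD2 had 1, 16 and 5 reads in Csm libraries of 24 hpf, against 0, 2 and 1 in mock libraries. The uncharacterized si:ch73-274k23.1 had 2, 3 and 10 reads in Csm libraries of 24 hpf, against 0, 0 and 1 in mock libraries, and si:dkeyp-46h3.2 had 7, 5 and 2, against 0, 0 and 1. At 5 hpf the counts of WSCD2 overlapped between injections, with 32, 42 and 33 reads in Csm libraries, against 29, 44 and 46 in mock libraries. There si:dkeyp-46h3.2 had 274, 251 and 317 reads in Csm libraries, against 266, 263 and 320 in mock libraries. At 24 hpf CHRNB2 had 50, 140 and 53 reads in Csm libraries, against 52, 77 and 57 in mock libraries. ATP10B had 36, 113 and 39 reads in Csm libraries of 24 hpf, against 29, 40 and 49 in mock libraries.

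Lists of genes with a shared role were then read as groups, and 0 members of any of the 26 lists passed the threshold. Across all genes 52% had an interaction below 0 and the median was -0.018. The signs below are those with TMM factors: 21 lists had a median below 0, and 12 of them had one above 0 with library totals, where the median of all genes was 0.14. Cytosolic ribosomal proteins, the parts of the ribosome, had 79 of 80 genes below 0 and a median of -0.39, and the 13 mRNAs encoded in the mitochondrial genome had 13 of 13 below 0 and a median of -0.37. In both lists 0 genes had an unadjusted p under 0.05, against 2.6% of all genes. Likewise 0 had ratios without overlap, against 7.37% of all genes, and the pairs disagreed. The median ratio of the ribosomal protein genes was 0.21, -0.71 and -0.16 in replicates 1, 2 and 3 of 24 hpf, against -0.16, 0.98 and -0.36 in those of 5 hpf. For the mitochondrial mRNAs it was 0.020, -0.59 and -0.23 at 24 hpf, against -0.19, 1.04 and -0.53 at 5 hpf. The sums over both lists were lowest in the Csm library of replicate 2 at 24 hpf, while at 5 hpf the mitochondrial sum was 55650 CPM in the Csm library of replicate 3 and 60120 CPM in the mock library of replicate 2, against 79780 to 157000 CPM in the other 4. Without replicate 2 of 5 hpf the medians were 0.016 for the ribosomal protein genes and 0.087 for the mitochondrial mRNAs, and without replicate 3 of 5 hpf they were -0.65 and -0.72.

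Other housekeeping lists leaned the same way with smaller medians. Below 0 were 61 of 73 genes of nuclear oxidative phosphorylation (median -0.13), 68 of 83 splicing factors (-0.13), 39 of 50 translation factors (-0.17), 50 of 74 cell cycle and replication genes (-0.06) and 26 of 42 proteasome genes (-0.04). With library totals in place of TMM factors the medians were 0.025, 0.024, -0.020, 0.095 and 0.11 in the same order. The median of all genes was then 0.14, against -0.018 with TMM factors. Of the splicing factors, the HNRNPK gene with identifier ENSDARG00000007034 had 89.0, 78.2 and 70.34 CPM in Csm embryos of 24 hpf, against 93.5, 89.4 and 84.7 CPM in mock embryos. At 5 hpf HNRNPK had 12, 12 and 10.2 CPM in Csm embryos, against 8.63, 8.38 and 7.11 CPM in mock embryos, without overlap, and the interaction was -0.68 (unadjusted p = 0.00738). A second gene listed as HNRNPK had an interaction of -0.27. The elongation factor eef2b had an interaction of -0.58 and an unadjusted p of 0.165. Of 2 genes listed as MCM6, a subunit of the replication helicase, ENSDARG00000033231 had an interaction of -0.77 (unadjusted p = 0.0284) and the other one of 0.33, and the ATP synthase subunit atp5mf had -0.63 (unadjusted p = 0.046).

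**Figure D5:**
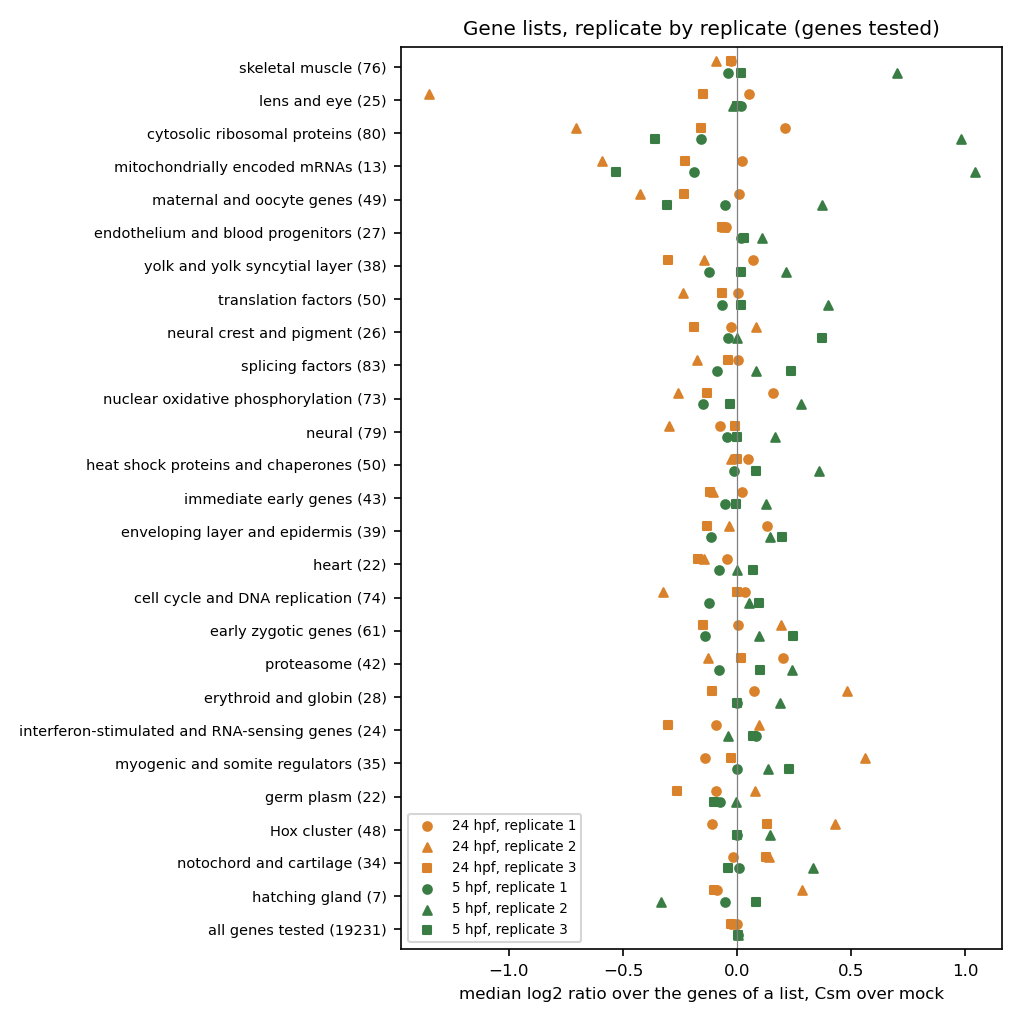
Median within-replicate log2 ratio of Csm over mock (horizontal axis) over the tested genes of each list (rows, number of genes in parentheses), for the 3 experiments at 24 hpf (orange) and at 5 hpf (green), markers giving the replicate. In ribosomal protein and mitochondrial mRNAs replicate 2 lies far left at 24 hpf and far right at 5 hpf, and the row of all genes lies near 0.

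Genes of tissues that form by 24 hpf came next. Skeletal muscle had the most negative median interaction of all lists, -0.52, with 61 of 76 genes below 0. The median effect was -0.07 at 24 hpf and 0.47 at 5 hpf. In replicates 1, 2 and 3 the median ratio was -0.03, -0.09 and -0.03 at 24 hpf, against -0.04, 0.70 and 0.02 at 5 hpf. Of the 76 genes, 9 had an interaction below 0 with an unadjusted p under 0.05, against 1.37% of all genes. Ratios at 24 hpf lay below those at 5 hpf for 8 (10.5%, against 4.12% of all genes) and above for 1 (1.32%, against 3.26%). Genes little read at 5 hpf are frequent in such counts. Of all genes with an interaction below 0 at that p, 51% were under 1 CPM at 5 hpf, against 23.9% of all genes tested. A share among genes of a like level at 5 hpf was not computed for this or any other list. The muscle creatine kinase ckmb had 590, 666 and 607 CPM in Csm embryos of 24 hpf, against 686, 802 and 752 CPM in mock embryos, so that Csm was lower in each pair. At 5 hpf ckmb had 3, 16 and 6 reads in Csm libraries, against 2, 6 and 2 in mock libraries, and its interaction was -1.48 (unadjusted p = 0.00579). The parvalbumin gene pvalb2 had 4 reads in a single Csm library of 5 hpf and 0 in all mock libraries. Without replicate 2 of 5 hpf the median interaction of the muscle list was -0.06, and with at least 10 counts asked of every library it was -0.14.

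Neural genes had 51 of 79 below 0 and a median of -0.12. Ratios at 24 hpf lay below those at 5 hpf for 15 genes (19%, against 4.12% of all genes) and above for 2 (2.53%, against 3.26%). The median effect was -0.14 at 24 hpf and 0.0017 at 5 hpf. In replicates 1, 2 and 3 the median ratio of the neural genes was -0.07, -0.30 and -0.01 at 24 hpf, against -0.04, 0.17 and 0 at 5 hpf. Replicate 2 thus had the largest median at either stage. At 24 hpf 19 genes (24.1%, against 13.3% of all genes) were below 0 in each pair and 2 (2.53%, against 11.7%) above. Among the neural genes, dlb, a Delta ligand of the Notch pathway, had 171, 144 and 193 CPM in Csm embryos of 24 hpf, against 180, 206 and 186 CPM in mock embryos. At 5 hpf dlb had 5.21, 5.46 and 5.00 CPM in Csm embryos, against 3.45, 3.98 and 2.99 CPM in mock embryos, without overlap, and the interaction was -0.77 (unadjusted p = 0.00851). The proneural gene ascl1a, described above, is also a member. The neural median interaction was 0.029 with library totals, against 0.14 for all genes. It was -0.086 without replicate 2 of 24 hpf and -0.038 over the 26 genes with at least 10 counts in every library. Lens and eye genes had 18 of 25 below 0 and a median of -0.44, with a median ratio of -1.35 in replicate 2 of 24 hpf, against 0.05 and -0.15 in replicates 1 and 3. Without replicate 2 of 24 hpf the median interaction was -0.15, and over the 4 genes with at least 10 counts in every library it was -0.17. The lens crystallin CRYBB1 had 28.5, 22.8 and 23.2 CPM in Csm embryos of 24 hpf, against 28.8, 59.6 and 29.7 CPM in mock embryos, the mock library of replicate 2 standing out. At 5 hpf CRYBB1 was at 0.774 CPM or less, and its interaction was -1.89 (unadjusted p = 0.013).

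Hox genes, which set position along the body axis, had 26 of 48 above 0 and a median of 0.08. Ratios at 24 hpf lay above those at 5 hpf for 6 (12.5%, against 3.26% of all genes) and below for 3 (6.25%, against 4.12%). At 5 hpf the Hox genes were hardly read, with sums of 5.11 to 7.67 CPM per library and median ratios of 0, 0.14 and 0. For genes so little read at 5 hpf the shares without overlap depend largely on the signs at 24 hpf. At 24 hpf 8 Hox genes (16.7%, against 11.7% of all genes) were above 0 in each pair and 4 (8.33%, against 13.3%) below. The median ratio of the Hox genes at 24 hpf was 0.43 in replicate 2, against -0.11 and 0.13 in replicates 1 and 3. Without that replicate the median interaction was -0.09. With at least 10 counts asked of every library a single Hox gene was left, at 0.81. A posterior member chosen after its values were seen, HOXC13 (identifier ENSDARG00000113877), had 7.19, 15.8 and 14.8 CPM in Csm embryos of 24 hpf, against 6.30, 9.77 and 11.6 CPM in mock embryos. The 2 members with the smallest p, HOXB3 and HOXD3, both had an interaction below 0. HOXB3 had 156, 150 and 160 CPM in Csm embryos of 24 hpf, against 158, 149 and 166 CPM in mock embryos. At 5 hpf HOXB3 had 4, 8 and 8 reads in Csm libraries, against 5, 0 and 1 in mock libraries, with an interaction of -1.65. HOXD3 had 0, 4 and 0 reads in Csm libraries of 5 hpf, against 0, 0 and 0 in mock libraries. The gene listed as TBXT with identifier ENSDARG00000039806 is a T-box factor of the notochord list. It had 0.693, 1.74 and 0.632 CPM in Csm embryos of 24 hpf, against 0.203, 0.238 and 0.380 CPM in mock embryos. These are 8, 33 and 7 reads, against 2, 3 and 5 reads. At 5 hpf TBXT had 1.55, 2.12 and 4.20 CPM in Csm embryos, against 2.35, 3.62 and 2.00 CPM in mock embryos. Its interaction was 1.89 (unadjusted p = 0.0287), and its ratios overlapped between the stages. The member of the notochord list with the smallest p, COL9A1, went the other way, with an interaction of -1.47 (unadjusted p = 0.0281). The ratios of COL9A1 at 24 hpf lay below those at 5 hpf. The somite factor MEOX1, of the myogenic and somite list, had 25.6, 62.0 and 44.4 CPM in Csm embryos of 24 hpf, against 26.3, 35.6 and 44.7 CPM in mock embryos. Its ratios there were -0.04, 0.80 and -0.01, so only replicate 2 differed clearly. At 5 hpf MEOX1 had 0, 4 and 1 reads in Csm libraries, against 0, 0 and 0 in mock libraries. Its interaction was below 0, and no fold is given.

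In the remaining tissue lists the genes below 0, against 52% of all genes, were 16 of 35 for myogenic and somite regulators (median 0.035), 15 of 28 for erythroid and globin genes (-0.04), 26 of 39 for enveloping layer and epidermis (-0.08) and 3 of 7 for hatching gland (0.17). They were 13 of 34 for notochord and cartilage (0.08), 16 of 26 for neural crest and pigment (-0.16), 13 of 22 for heart (-0.07), 18 of 27 for endothelium and blood progenitors (-0.22) and 26 of 38 for yolk and yolk syncytial layer (-0.19). The transferrin receptor gene tfr1a, of the erythroid list, had 1.99, 3.96 and 2.17 CPM in Csm embryos of 24 hpf, against 1.12, 1.99 and 2.13 CPM in mock embryos. At 5 hpf tfr1a had 1.62, 1.3 and 1.48 CPM in Csm embryos, against 3.66, 2.49 and 1.75 CPM in mock embryos, and its interaction was 1.41 (unadjusted p = 0.0127). The selenium carrier gene selenop, read in the yolk syncytial layer, had an interaction of -0.84 (unadjusted p = 0.0108).

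Genes of the maternal and early zygotic programmes also had no call. Of 61 early zygotic genes 37 were below 0, with a median of -0.05, and of 49 maternal and oocyte genes 37 were below 0, with a median of -0.26. In the maternal list replicate 2 again had the extreme median ratios, -0.43 at 24 hpf, against 0.37 at 5 hpf. The egg envelope gene zp3b, of the maternal list, had 1.65, 0.739 and 2.26 CPM in Csm embryos of 24 hpf, against 2.34, 2.3 and 3.34 CPM in mock embryos, and its interaction was -0.94 (unadjusted p = 0.0216). At 5 hpf zp3b had 74.8, 55.7 and 53.4 CPM in Csm embryos, against 74.9, 40.6 and 62.9 CPM in mock embryos, which overlapped.

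Lists of genes that answer foreign RNA, protein stress or stimulation had small medians below 0 with TMM factors. Over all genes the median was -0.018 and 52% were below 0. With library totals the medians of the interferon, heat shock and immediate early lists were 0.12, 0.057 and 0.067, against 0.14 for all genes. With at least 10 counts in every library they were 0.29, -0.04 and -0.06. Interferon-stimulated and RNA-sensing genes had 13 of 24 below 0 and a median of -0.03, and immediate early genes had 26 of 43 and -0.09. The antiviral GTPase gene mxa had 0.260, 0.211 and 0.181 CPM in Csm embryos of 24 hpf, against 0.610, 0.397 and 0.531 CPM in mock embryos, which are 2 to 4 reads and 5 to 7 reads per library. At 5 hpf mxa had 8.51, 11.9 and 7.21 CPM in Csm embryos, against 8.01, 12.4 and 6.17 CPM in mock embryos, and the interaction was -1.25 (unadjusted p = 0.0324). Heat shock proteins and chaperones had 31 of 50 below 0 and a median of -0.09. Among them hsp70.3, an inducible Hsp70, had 2.86, 2.80 and 3.43 CPM in Csm embryos of 24 hpf, against 2.75, 2.78 and 4.40 CPM in mock embryos. At 5 hpf hsp70.3 had 2.88, 6.35 and 1.02 CPM in Csm embryos, against 1.52, 0.426 and 0.935 CPM in mock embryos, the pair of replicate 2 being far apart, and the interaction was -1.67 (unadjusted p = 0.0411). The collagen chaperone SERPINH1 (identifier ENSDARG00000019949) had an interaction of -0.83 (unadjusted p = 0.0382).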

How the data were processed

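Poly(A)-selected RNA of whole zebrafish embryos was sequenced. The authors deposited counts, whole numbers of reads per gene. The submitters' processing notes name UMI-tools 1.0.0, cutadapt 2.4, STAR 2.7.2b, HTSeq 0.11.2 and the build GRCz11, and the settings of these tools are not given in the sources used here. The files list an EGFP contig beside the genome. Normalised tables were not used here. Of 32521 identifiers per library, 29202 had a symbol in the name table. The 5 rows that name no gene were left out, and reads without a feature made up 12.6% to 17.9%.

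Genes were kept by edgeR's filterByExpr with EGFP always kept, and NKX2-5 fell below it. Counts were fitted with edgeR 4.0.16 (TMM factors, robust quasi-likelihood test, R 4.3.3), with replicate number within stage as block and an injection term at each stage. The fit left 4 residual degrees of freedom, p-values were adjusted by Benjamini and Hochberg over all genes, and 0.1 was the threshold. The labels number the replicates, and libraries of the same number at a stage were taken as 1 independent experiment. Deviations of Csm and mock libraries of the same number from their group means had correlations over genes of 0.43, 0.22 and 0.20 at 24 hpf and 0.55, 0.087 and 0.060 at 5 hpf, against -0.32 to 0.14 and -0.57 to 0.47 between libraries of different numbers. The median biological coefficient of variation was 0.21.

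Genes were named by rule: EGFP and endogenous genes studied in this system, the 12 genes with a symbol and smallest interaction p in each direction among those with ratios that did not overlap between stages, and the 2 members of each list with the smallest p, of which examples are given. Other named genes are said to be chosen after their values were seen. The members and lists were chosen with earlier results of these data known. No fold is given where a group held at most 3 reads in all its libraries. The scripts were tested on simulated data. Alternatives used DESeq2 1.42.0, limma 3.58.1 (voom), other scalings and filters, no replicate block, and each replicate left out. The 6 libraries of the 128-cell stage entered 1 alternative only. One further list and 1 gene are not reported here.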

Additional observations from a re-analysis of the deposited data

How the results depend on the processing

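The interaction had 0 calls under each of 17 alternatives, with a lowest adjusted p of 0.52 when no filter on low counts was used, and the effect at 24 hpf also had 0 calls under each. The effect at 5 hpf had 1 call with a replicate block shared by both stages, 1 with all 18 libraries, 2 with DESeq2's Wald test and 2 with no filter on low counts, and between 0 and 1 when 1 replicate was left out. The genes were rps27l in these 4, joined in the last 2 by RNF14 (identifier ENSDARG00000078683, adjusted p = 0.036 in DESeq2's test), and mmrn2b without replicate 3 of 5 hpf. Without the replicate block the interaction of EGFP was 0.91 and 358 genes had an unadjusted p under 0.05, against 500 with it, and no call changed. That number was 227 in DESeq2's test, 179 with at least 10 counts in every library, 788 with all 18 libraries, and between 234 (without replicate 2 of 24 hpf) and 1138 (without replicate 3 of 5 hpf) when 1 replicate was left out. With library totals the median interaction of all genes was 0.14, against -0.018, and ratios at 24 hpf lay below those at 5 hpf for 442 genes and above for 897, against 792 and 626. Leaving out 1 replicate, a choice made after seeing the data, gave 1056 to 1927 genes above and 1294 to 2249 below, where 2 ratios were set against 3. The interaction of EGFP lay between 0.66 and 1.07, and no interaction of a gene named by rule changed sign. For genes chosen by their interaction p or by ratios without overlap, the choice itself made this likely. Genes under 1 CPM at a stage limit the comparison, since 65 of 6525 had an interval within 2-fold.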
